A study of Canis lupus familiaris with 6 samples.

Results

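The genes described here are 10 genes of lipid uptake and storage, read in healing jaw bone of the beagle dog. They are LPL, CD36, FABP4, ACSL4, DGAT2, PLIN2, PPARG, ADIPOQ, PDK4 and APOD, and every probe set annotated to one of these symbols alone was taken. All 10 had at least 1, giving 20 of the 42860 probe sets of a canine Affymetrix array. A probe set that carries FABP4 together with other genes was not used. The tested sites were drilled holes in the mandible filled with beta-TCP (beta-tricalcium phosphate, a ceramic that bone slowly resorbs), sampled on days 4, 7 and 14. The control sites were holes drilled in the same way and left without beta-TCP, sampled on the same days. In all groups the dogs were 9 years old, the premolars had been extracted 3 months before, and each hole was 4.5 mm in diameter and 8 mm in length. Each of the 6 groups holds 1 array, and the number of animals is not given in the sources used here.

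Fat reaches a cell either as free fatty acid or inside lipoproteins, whose triglyceride is cut at the vessel wall by lipoprotein lipase (LPL). Fatty acids enter through the scavenger receptor CD36, are carried in the cytosol by binding proteins such as FABP4, and are activated to acyl-CoA by enzymes such as ACSL4. DGAT2 adds the last acyl chain of triglyceride, which is stored in droplets coated by perilipins such as PLIN2. The nuclear receptor PPARG drives this programme in adipocytes, which secrete adiponectin (ADIPOQ). PDK4 inhibits pyruvate dehydrogenase and so turns a cell from glucose to fatty acid use, and APOD is a lipocalin that binds small lipids. In bone, CD36, FABP4 and PLIN2 are also known from endothelium and lipid-laden macrophages, not only from marrow adipocytes.

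Levels are given relative to the array: the signal of a probe set divided by the median signal of its own array, so that 1 is a probe set in the middle. Differences are beta-TCP minus control on the scale log2(level + 1), where changes of weak probe sets are understated. With 1 array per group a difference on a single day has no replicate check and no test. In whole specimens, fewer cells of a type and less RNA per cell cannot be told apart. Levels of different genes are not compared, since each probe set has its own brightness.

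The day 14 arrays need care. Their values were deposited on another scale than those of days 4 and 7, with medians of 6.2 with beta-TCP and 12 in the control, while the other arrays have medians of 1. The beta-TCP array of day 14 correlated with the others at a Spearman rho of 0.723 to 0.779, while the other 5 reached 0.832 to 0.905 among themselves. At day 14 the median difference of beta-TCP minus control was -0.13 for probe sets of the Cfa name type and -0.33 for those of the CfaAffx type. Of 10 osteoblast and matrix markers 6 lay above the median of every array, among them COL1A1, COL1A2 and SPP1, which carry the sum, while the osteocyte markers DMP1 and MEPE and the osteocalcin gene BGLAP were below the median of both day 4 arrays. The summed level of the 10 was 2030, 2582 and 4684 with beta-TCP at days 4, 7 and 14, against 1839, 2465 and 2721 in the controls. Osteoclast markers summed to 724, 1367 and 1809 with beta-TCP, against 602, 2734 and 916 in the controls, and skeletal muscle markers stayed between 12.6 and 19.4. Of 10 adipocyte markers 9 had a probe set, and their sum was 60.3, 85.1 and 25.7 with beta-TCP, against 83.2, 51.1 and 51.1 in the controls. Most of it was CFD (adipsin), though with beta-TCP at day 14 CFD made up only 18.3 of the 25.7. Of the 9 markers 4, 3 and 7 were higher with beta-TCP at days 4, 7 and 14. No other adipocyte marker exceeded 1.95, the level of CIDEC with beta-TCP at day 14, and PLIN1, the perilipin of fat cells, lay below the median of every array. The defining markers of fat cells other than CFD were thus near or under the middle of the arrays.

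The 10 genes followed several patterns. PLIN2, DGAT2, ACSL4 and PDK4 were lower with beta-TCP on all 3 days in the probe set with the highest mean. APOD was higher on all 3 days in the corresponding probe set. LPL was higher at day 4 and lower afterwards, whereas FABP4, CD36 and PPARG were lower at day 4, higher at day 7 and lower again at day 14. These levels are drawn for every array in the plot of levels by day.

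**Figure D1:**
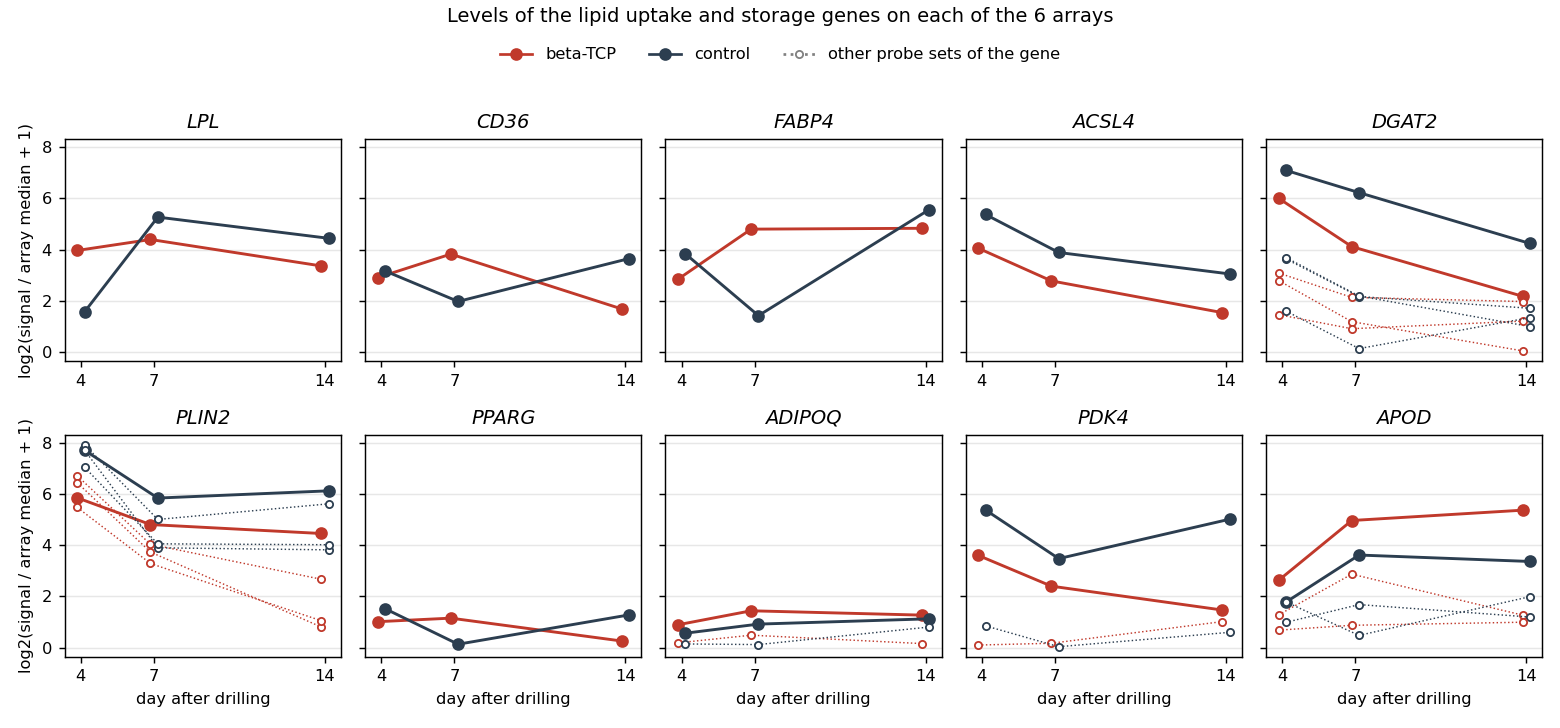
Level of each gene by day (x axis, days after drilling; y axis, log2 of signal over array median plus 1) with beta-TCP (red) and in the control (dark blue). Each point is 1 array; filled points joined by solid lines are the probe set with the highest mean and open points on dotted lines the other probe sets. ACSL4, DGAT2, PLIN2 and PDK4 run lower with beta-TCP on all 3 days, APOD runs higher, and FABP4 is lowest in the day 7 control.

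Of the 20 probe sets, 18 passed a filter on weak signal, a mean log2 level of at least the 40th percentile of all probe sets. The 2 left out were the weaker probe sets of ADIPOQ and PDK4, and 25608 probe sets were kept in all. At day 4, 1 of the 18 was at least 2-fold higher with beta-TCP (LPL) and 8 were lower, where 4.31% of all kept probe sets were higher and 2.96% lower. At day 7, 5 were higher and 5 lower, against 3.17% and 3.0% of all. At day 14, 1 was higher (APOD) and 10 were lower, against 3.89% and 16.2% of all. The median difference of the 18 was -0.95, -0.10 and -1.05 on days 4, 7 and 14, where that of all kept probe sets was 0.15, -0.04 and -0.22. Several of these probe sets share a gene, with 4 for PLIN2, 4 for DGAT2 and 3 for APOD, and the genes were chosen with earlier results of these arrays known.

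**Figure D2:**
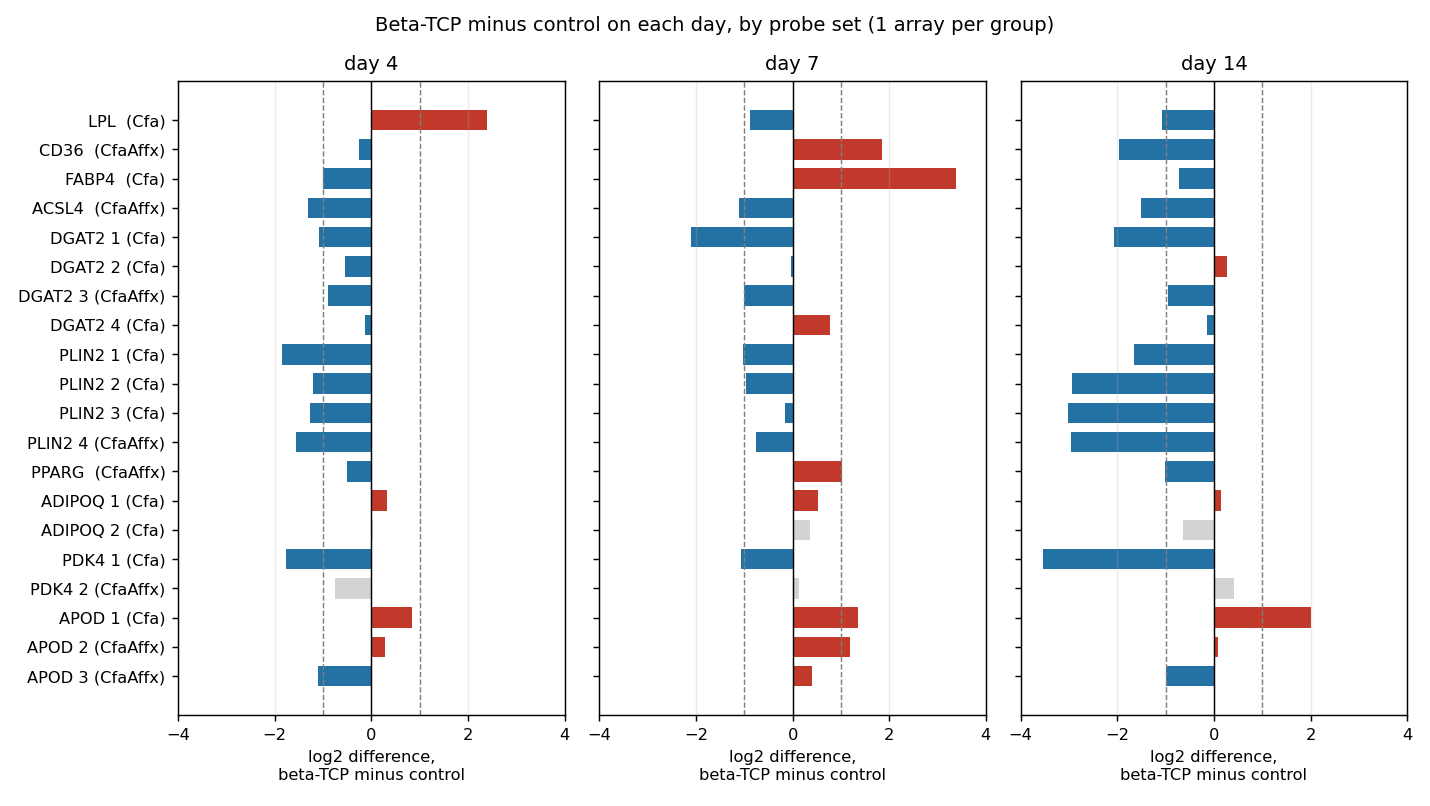
Log2 difference of beta-TCP minus control (x axis) for each of the 20 probe sets (rows, with the name type in brackets) at days 4, 7 and 14. Red bars are higher and blue bars lower with beta-TCP, grey bars are the 2 probe sets under the filter, and dashed lines mark 2-fold; each bar rests on 1 array per group. All 4 PLIN2 probe sets lie below 0 on all 3 days.

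LPL, the lipase at the start of uptake, stood out at day 4. It read 14.6, 20.0 and 9.26 with beta-TCP at days 4, 7 and 14, against 1.97, 37.4 and 20.7 in the controls. The beta-TCP sites thus showed little change between days 4 and 7, while the control sites started low and then overtook them. The log2 difference was 2.39 at day 4, -0.87 at day 7 and -1.08 at day 14. Taken as plain levels, without the added 1, the day 4 reading with beta-TCP was 7.42 times that of the control. Summed endothelial markers were also higher with beta-TCP at day 4 (167 against 77.3 in the control) and lower at day 7 (273 against 380), but higher at day 14 (353 against 270). Of the 10 endothelial markers 8 were higher at day 4, 2 at day 7 and 7 at day 14. Their part in the LPL values was not tested.

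FABP4, the cytosolic fatty acid carrier, had the largest single-day difference of the 10 genes on the higher side. It read 6.15, 26.8 and 27.4 with beta-TCP, against 13.3, 1.68 and 46.1 in the controls. The low reading was that of the day 7 control, while at days 4 and 14 the beta-TCP sites were the lower ones. The log2 differences were -0.997, 3.38 and -0.73. At day 4 it was just short of 2-fold on this scale, although the control level was 2.16 times the beta-TCP level. At day 7 the beta-TCP level was 15.97 times that of the control.

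CD36, the fatty acid receptor, had the same signs as FABP4 on each day, with smaller differences at days 4 and 7 and a larger one at day 14. It read 6.48, 13.1 and 2.21 with beta-TCP, against 7.97, 2.93 and 11.5 in the controls. The log2 differences were -0.26 at day 4, 1.85 at day 7 and -1.96 at day 14, so the sign turned at each step. The day 14 value rests on a CfaAffx probe set and on the array that stood apart. Summed macrophage markers, another source of CD36, were 213, 293 and 314 with beta-TCP and 248, 520 and 265 in the controls. CD68 alone made up 347 of the 520 in the day 7 control and 214 of the 314 with beta-TCP at day 14. At day 7, 4 of the 10 were higher with beta-TCP, as CD36 was, among them MRC1 (0.52) and MSR1 (1.12, with only 0.028 in the control). The other 6 were lower, with MARCO at -1.79, CD68 at -1.17 and CD14 at -1.10, and the list median was -0.22. At day 14, 6 of the 10 were lower, as CD36 was, with MARCO at -3.39, CD163 at -2.03 and MRC1 at -1.66, and the list median was -0.34. The 4 higher ones at day 14 included CD68 at 1.59. CFD, which carries the adipocyte sum, read 55.2, 80.9 and 18.3 with beta-TCP and 76.7, 45.8 and 46.4 in the controls, lower at day 4, higher at day 7 and lower at day 14 like FABP4 and CD36. The relation of these markers to FABP4 and CD36 was not tested.

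ACSL4, which activates long-chain polyunsaturated fatty acids, was lower with beta-TCP by more than 2-fold on each day. It read 15.6, 5.85 and 1.90 with beta-TCP, against 40.3, 13.8 and 7.27 in the controls. Both series were lower at each later day, and on every day the beta-TCP array was the lower one. The log2 differences were -1.32, -1.11 and -1.51.

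DGAT2, the enzyme of the last step of triglyceride synthesis, behaved alike in its brightest probe set. It read 63.0, 16.3 and 3.52 with beta-TCP, against 135, 73.5 and 17.8 in the controls. The log2 differences were -1.09, -2.11 and -2.06. A second probe set, of the CfaAffx type, gave -0.90, -1.001 and -0.95. It read 5.92, 1.27 and 0.032 with beta-TCP and 11.9, 3.55 and 0.99 in the controls, so its last values are weak. The remaining probe sets did not show this. One lay at -0.55, -0.03 and 0.26, and the other at -0.14, 0.78 and -0.14 with levels of 0.098 to 2.03. The DGAT2 difference after day 4 therefore rests on 2 of its 4 probe sets.

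PLIN2, which coats lipid droplets in most cell types, was among the brighter probe sets at day 4, at or above the 95.7th percentile of its array in all 4 probe sets. The probe set with the highest mean read 56.3, 26.8 and 20.9 with beta-TCP, against 206, 56.0 and 68.3 in the controls. Its log2 differences were -1.86, -1.03 and -1.66. The other 3 probe sets gave -1.21 to -1.57 at day 4, -0.17 to -0.97 at day 7 and -2.94 to -3.01 at day 14. All 4 probe sets were thus lower with beta-TCP on all 3 days, and day 7 held the smallest differences. At day 14, 2 of them read only 0.74 and 1.06 with beta-TCP, against 13.1 and 15.1 in the control.

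The summed level of neutrophil markers was lower with beta-TCP on each day, as PLIN2, DGAT2 and ACSL4 were. Of 10 such markers 7 had a probe set, and their sum was 930, 969 and 113 with beta-TCP, against 1710, 1437 and 300 in the controls. S100A8 and S100A9 made up most of it. Of the 7, 6 were lower at day 4, 4 at day 7 and 4 at day 14, the last 4 being CSF3R, S100A8, S100A9 and LTF. CAMP, an antimicrobial peptide of neutrophil granules, went the other way at day 14, with 8.26 with beta-TCP against 1.28 in the control (log2 difference 2.02). MPO and ELANE, granule enzymes made in immature neutrophils, lay below the median of every array. Markers of stratified epithelium were also lower at day 4 (summed level 7.57 with beta-TCP against 89.2 in the control) but close at day 14 (3.92 against 3.97). The part of these cells in the lipid gene differences was not tested.

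PPARG, the receptor that directs adipocyte genes, was weak on all arrays. It read 1.01, 1.21 and 0.19 with beta-TCP, against 1.86, 0.094 and 1.42 in the controls, which spans the 13.4th to the 63.0th percentile of the arrays. The signs followed those of FABP4 and CD36, with log2 differences of -0.51, 1.02 and -1.02. At these levels a large ratio can come from a small difference in signal, and the log2 scale used here shrinks it.

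ADIPOQ, the hormone of fat cells, stayed near the array median too. Its brighter probe set read 0.85, 1.70 and 1.40 with beta-TCP, against 0.47, 0.88 and 1.18 in the controls. The differences of 0.33, 0.52 and 0.14 were positive on each day but all under 2-fold. The weaker probe set, under the filter, gave 0.04, 0.37 and -0.65.

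PDK4, which restrains glucose oxidation, had the most negative single-day difference of the 10 genes. It read 11.1, 4.26 and 1.76 with beta-TCP, against 40.3, 10.1 and 31.2 in the controls. In the controls day 14 lay closer to day 4 than to day 7, while with beta-TCP each later day was lower than the one before. The log2 differences were -1.77, -1.08 and -3.54. The other PDK4 probe set, under the filter with levels of 0.023 to 1.02, gave -0.75, 0.13 and 0.42.

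APOD, the lipid-binding lipocalin, ran the other way in its brightest probe set. It read 5.15, 30.1 and 40.1 with beta-TCP, against 2.41, 11.2 and 9.26 in the controls. The difference widened with time, from 0.85 at day 4 through 1.35 at day 7 to 2.001 at day 14. The second probe set gave 0.29, 1.19 and 0.07. The third, with levels of 0.39 to 2.96, gave -1.10, 0.39 and -0.997. The 2-fold difference at day 14 is therefore seen in 1 of 3 APOD probe sets.

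Across days, 4 of the 18 probe sets were at least 2-fold lower with beta-TCP on all 3 days, where 0.281% of all kept probe sets were. They belong to DGAT2, ACSL4, PLIN2 and PDK4. Without the day 14 arrays the same 4 were at least 2-fold lower on both remaining days, against 0.523% of all. The count depends on scale, with 2 (DGAT2 and ACSL4) when arrays were scaled to their 90th percentile and 0 with a pseudocount of 16. The share of all kept probe sets was lower there too, at 0.215% and 0.0351%. At any size, 8 of the 18 were lower on all 3 days and 3 higher, where 13.2% and 9.01% of all kept probe sets were.

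To test what the 3 days have in common, limma was fitted to the 6 arrays with a term for day and a term for beta-TCP, which leaves 2 residual degrees of freedom. None of the 18 probe sets changed at an adjusted p of 0.05, nor did any of the 25608 (0.0% higher and 0.0% lower, lowest adjusted p = 0.582). At an unadjusted p under 0.05, 8 of the 18 were lower and 1 was higher, where 735 (2.87%) and 322 (1.26%) of all were. PDK4 had the largest estimate, -2.13 ± 0.46 (SE, limma adjusted p = 0.582, lower on 3 of 3 days). DGAT2 had -1.75 ± 0.33, PLIN2 -1.52 ± 0.31 and ACSL4 -1.31 ± 0.29 in the probe sets with the highest mean, each at the same adjusted p in limma. The PLIN2 probe sets agree within their errors, at -1.48 to -1.77. Those of DGAT2 do not, since the others had -0.95 ± 0.29, -0.11 ± 0.31 and 0.17 ± 0.32. APOD had 1.40 ± 0.33 in its brightest probe set (limma adjusted p = 0.607, higher on 3 of 3 days). Its other probe sets had 0.52 ± 0.33 and -0.57 ± 0.37.

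For the genes that changed sign between days the average says little. LPL had 0.15 ± 0.61, FABP4 0.55 ± 0.74, CD36 -0.13 ± 0.60 and PPARG -0.17 ± 0.41 (SE). Their errors exceed their estimates, because differences between days enter the residual. Without the day 14 arrays 108 probe sets passed, with DGAT2 as the only one of the 18 (-1.60 ± 0.33, adjusted p = 0.0476 in limma with 1 residual degree of freedom). Without the day 4 arrays 3 passed, and without the day 7 arrays 0, none of them among these genes.

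**Figure D3:**
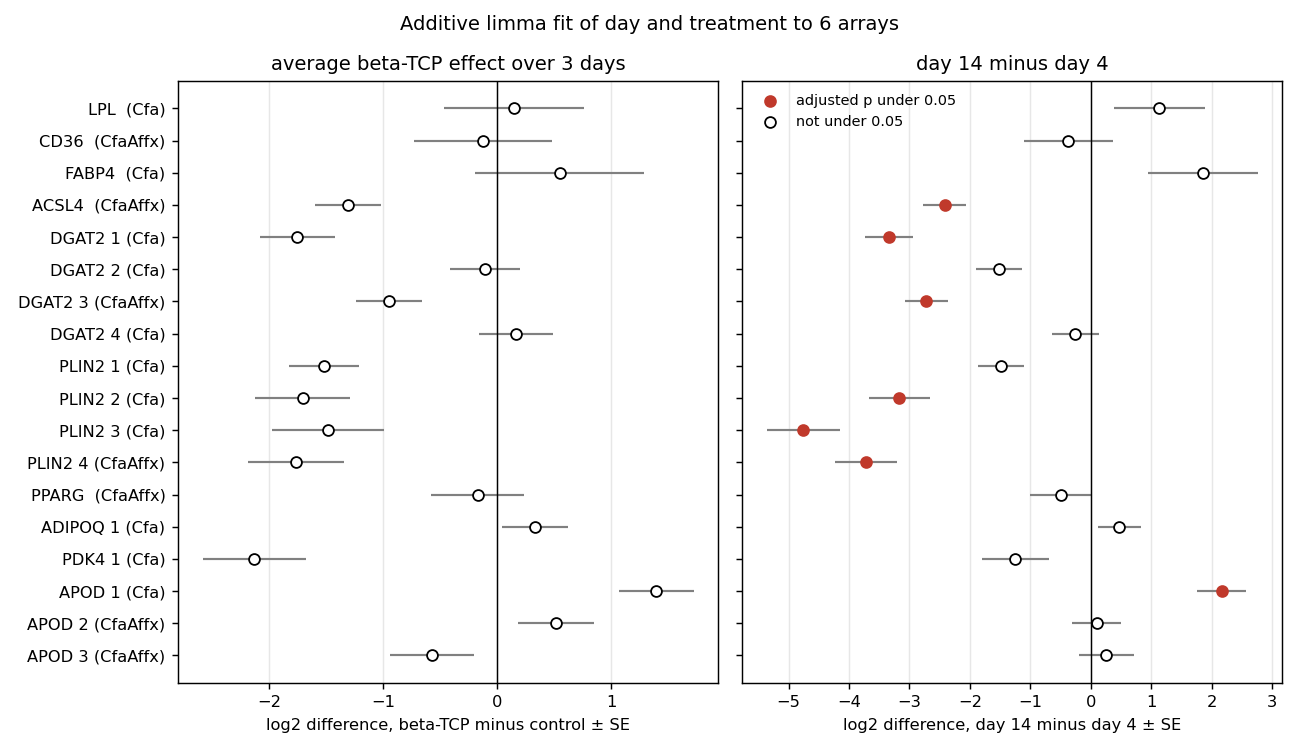
Estimates (points) with standard errors (bars) from limma's additive fit to 6 arrays for the 18 kept probe sets (rows, name type in brackets). The left panel shows the average of beta-TCP minus control and the right panel day 14 minus day 4, both in log2 units; filled red points have an adjusted p under 0.05. Filled points occur only on the right, 6 lower and 1 higher.

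The same fit compared the days, averaged over beta-TCP and control sites. Between days 4 and 14, PLIN2, DGAT2 and ACSL4 fell and APOD rose: 6 of the 18 probe sets were lower and 1 higher at an adjusted p under 0.05, where 2.5% and 0.773% of all kept probe sets were. PLIN2 differed by -3.17 ± 0.51, -4.76 ± 0.60 and -3.72 ± 0.52 (SE) in 3 probe sets (limma adjusted p = 0.0189, 0.0106 and 0.0132). Its probe set with the highest mean had -1.49 ± 0.38 (limma adjusted p = 0.0744). DGAT2 differed by -3.34 ± 0.40 and -2.72 ± 0.35 in 2 probe sets (limma adjusted p = 0.0094 and 0.0109), while its other 2 had -1.52 ± 0.38 and -0.25 ± 0.39 (limma adjusted p = 0.0692 and 0.750). Of the steps that feed the droplet, ACSL4 thus went the same way, with -2.42 ± 0.36 (limma adjusted p = 0.0157). APOD rose by 2.16 ± 0.40 in its brightest probe set (limma adjusted p = 0.0291), while the others had 0.10 and 0.26. Day 14 and its other scale of deposition cannot be told apart in these differences. No probe set passed without the filter on weak signal or with a pseudocount of 16.

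Between days 4 and 7, which share a scale, none of the 18 passed, nor did any of all kept probe sets (limma, lowest adjusted p = 0.0890, with 2814 at an unadjusted p under 0.05). At an unadjusted p under 0.05, 10 of the 18 were lower at day 7 and 3 higher. The lower ones include all 4 probe sets of PLIN2 and all 4 of DGAT2, so they stand for few genes. The 2814 among the 25608 kept probe sets were not split by direction, so no share of all stands beside either count. The 4 PLIN2 probe sets had -1.45 to -3.26, and 3 of them passed (adjusted p under 0.05 in limma) when arrays were scaled to their 90th percentile. LPL had 2.06 ± 0.75 (limma adjusted p = 0.355) and APOD 2.09 ± 0.40 (limma adjusted p = 0.132). LPL moved by 3.70 log2 units in the controls and by 0.43 with beta-TCP. FABP4 moved by 1.96 with beta-TCP and by -2.42 in the controls.

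Among the 10 genes, taken by the probe set with the highest mean, the patterns over the 6 arrays fell into groups. DGAT2 and ACSL4 had a Pearson correlation of 0.98, PLIN2 and PDK4 of 0.92, and PLIN2 and ACSL4 of 0.91. APOD ran opposite to them, with -0.94 against PLIN2, -0.93 against ACSL4, and -0.88 against DGAT2 and PDK4. ADIPOQ went with APOD (0.92) and opposite to PLIN2 (-0.90). The brightest APOD probe set had only 0.57 and -0.37 with the other APOD probe sets, and ADIPOQ spanned only levels of 0.47 to 1.70. CD36 and PPARG had 0.88 and FABP4 and CD36 0.48. LPL had its strongest correlations with PLIN2 (-0.55) and ADIPOQ (0.53). The arrays share days and scaling, so these values only describe 6 readings each.

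The most similar genes were sought for 3 members, DGAT2, FABP4 and PDK4, among 1434 genes with a range of at least 2 log2 units. These members had the widest range over the arrays in the probe set with the highest mean. Other probe sets of PLIN2 ranged wider, by 5.24 to 6.90 log2 units against 4.92 for that of DGAT2. For DGAT2 these were CEACAM28 (r = 0.996), AOAH, an enzyme that degrades bacterial lipopolysaccharide (0.995), and KMO, an enzyme of the kynurenine pathway (0.993), and 105 genes reached 0.95. FABP4 had no gene at 0.95, and its nearest were the matrix gene HMCN1 (0.936), EFCAB11 (0.890) and the dipeptidase gene DPEP1 (0.860). PDK4 had 1, the transcription factor gene NFIL3 (0.966), followed by ETF1 (0.948) and HMGB2 (0.946). DGAT2 thus followed a pattern that many genes share, and FABP4 one that few do.

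The neighbouring steps of lipid metabolism were read from 11 lists holding 164 genes other than the 10, of which 113 passed the filter, each by the probe set with the highest mean. Of the 113, 7 were higher with beta-TCP by 2-fold or more at day 4 and 4 lower, where 4.52% and 3.1% of 10530 genes were. At day 7 it was 5 and 10, against 2.96% and 3.44%, and at day 14 it was 2 and 16, against 3.47% and 15.4%. The median differences of the 113 were 0.21, -0.22 and -0.13, close to those of all genes at 0.17, -0.08 and -0.23. At days 4 and 14 the shares were close to those of all genes. None of the 113 passed for the average beta-TCP effect (adjusted p under 0.05, limma), and between days 4 and 14, 2 passed higher and 1 lower, against 1.06% and 2.23% of genes.

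**Figure D4:**
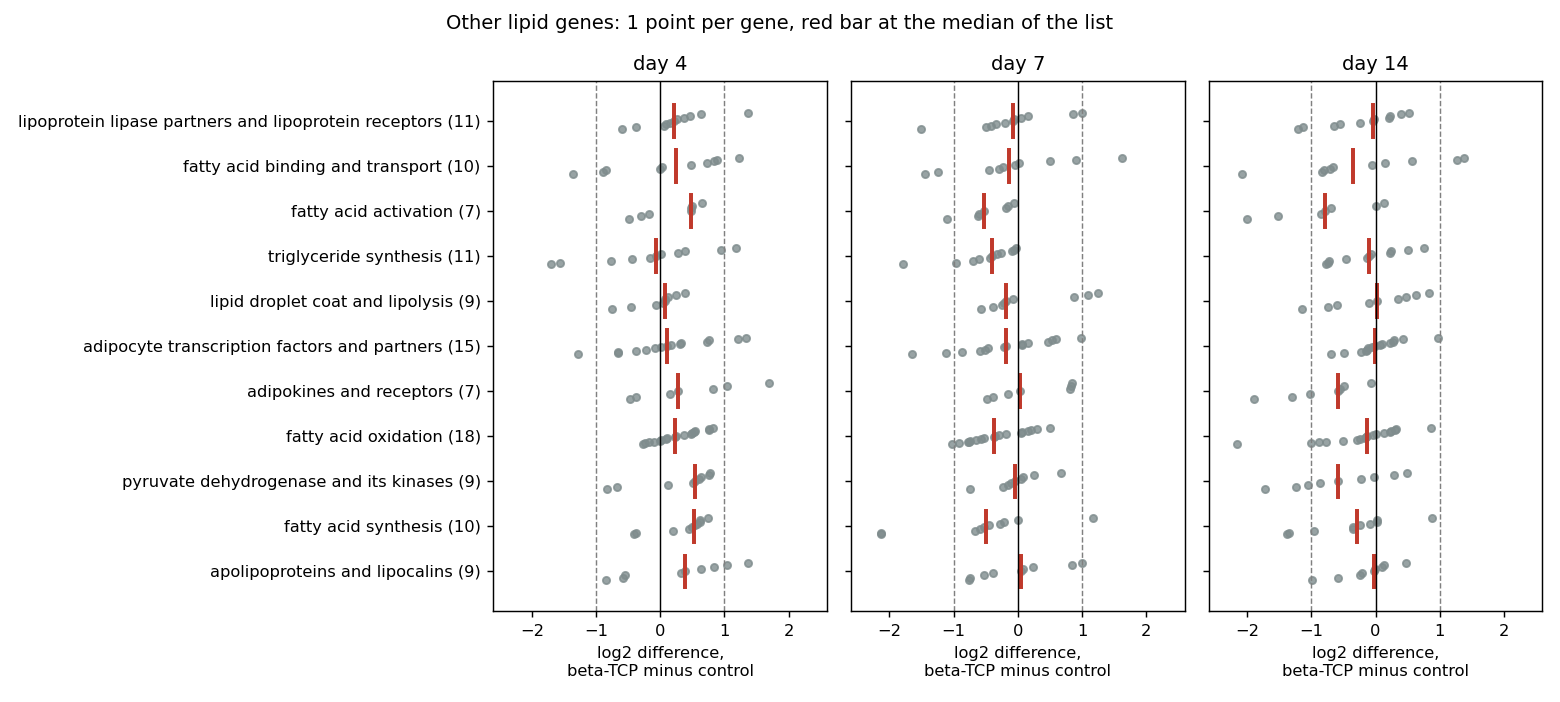
Log2 difference of beta-TCP minus control (x axis) for the other lipid genes in 11 lists (rows, number of genes kept in brackets) at days 4, 7 and 14. Each grey point is 1 gene read on 1 array per group, red bars are list medians, and dashed lines mark 2-fold. The list medians lie between -0.79 and 0.54, and single genes spread on both sides of 0.

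Among carriers of fatty acids, the heart-type binding protein FABP3 was higher on each day, with 24.1, 21.8 and 33.5 with beta-TCP against 9.69, 11.2 and 13.3 in the controls. Its differences were 1.23, 0.90 and 1.27, and its average effect 1.13 ± 0.29 (SE, limma adjusted p = 0.678). FABP5, the carrier known from skin and macrophages, differed by 0.024, 0.50 and -0.81. Both FABP3 and FABP4 were thus above the control at day 7, and FABP3 also at days 4 and 14, where FABP4 was below it. The transporter gene SLC27A2 was lower on each day (-1.36, -1.24 and -0.84). CAV1, a coat protein of caveolae, had 0.89, -0.038 and -2.08. The transporter gene SLC27A6 had -0.90, 1.63 and -0.66, the same order of signs as FABP4. FABP7, the brain-type binding protein, had -0.84, -1.45 and 1.38. Of the 10 kept genes of this list, 1, 1 and 2 were at least 2-fold higher on days 4, 7 and 14, and 1, 2 and 1 lower.

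Around LPL, the apolipoprotein gene APOE differed by 1.36 at day 4, 1.003 at day 7 and -0.24 at day 14. ANGPTL4, which inhibits LPL, differed by -0.59, -0.50 and -1.13. GPIHBP1, which holds LPL at the endothelium, stayed between 0.44 and 1.76 on all arrays. The receptor gene VLDLR differed by -1.51 at day 7, where it read 6.80 with beta-TCP and 21.2 in the control. SDC1, a heparan sulfate proteoglycan, differed by -1.21 at day 14. Of 11 kept genes, 1 was at least 2-fold higher at days 4 and 7 each, 1 was lower at day 7 and 2 were lower at day 14.

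In triglyceride synthesis, GPAT3, which makes the first step of glycerolipid assembly, was lower with beta-TCP on each day. It read 12.6, 1.62 and 0.27 with beta-TCP, against 43.6, 3.00 and 1.11 in the controls. Its differences were -1.71, -0.61 and -0.73. GPAT3 fell by 3.91 between days 4 and 14 (limma adjusted p = 0.00631), the only one of 11 kept genes of the list that passed. MOGAT1 also passed 2-fold (-1.55 at day 4). So did the sterol acyltransferase genes that the list holds, SOAT1 (1.18 at day 4, with only 0.075 in the control) and SOAT2 (-1.79 at day 7). Levels of MOGAT1, SOAT1 and SOAT2 were at most 8.17. The median of the list was -0.07, -0.41 and -0.10.

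Activating enzymes other than ACSL4 stayed under 2-fold before day 14, with the exception of ACSF2 at day 7 (-1.10). ACSL1, the main form in adipocytes and heart, had -0.49, -0.15 and -1.997. Of 7 kept genes 0 were at least 2-fold higher on any day, 1 was lower at day 7 and 2 at day 14 (ACSL1 and ACSM3, -1.51). Among droplet and lipolysis genes, the monoglyceride lipase gene MGLL differed by 1.24 and the lysosomal lipase gene LIPA by 1.08 at day 7, and the seipin gene BSCL2 by -1.14 at day 14. No gene of this list other than those 3 of 9 passed 2-fold on any day.

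Among transcription factors of fat cells, the precursor genes EBF1 (1.21, 0.99 and 0.11) and ZNF423 (1.33, 0.60 and 0.28) were higher with beta-TCP at day 4. ZNF423 rose by 2.24 between days 4 and 14 (limma adjusted p = 0.0256). NR1H3, the oxysterol receptor LXR alpha, differed by -1.66 at day 7. KLF5 differed by -1.28 at day 4 and the coactivator gene PPARGC1B by -1.12 at day 7. Past 2-fold, the 15 kept genes held 2 on the higher and 1 on the lower side at day 4, 2 on the lower side at day 7 and 0 at day 14. Among adipokines, RBP4 (1.04) and RARRES2 (1.69) were higher at day 4, and RARRES2 (-1.90), CFD (-1.30) and the leptin gene LEP (-1.02) lower at day 14, out of 7 kept.

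Genes that burn or make fatty acids passed 2-fold at days 7 and 14 only. Of 18 kept oxidation genes 0 passed 2-fold at day 4, 1 was lower at day 7 (UCP2, -1.02) and 2 at day 14 (ETFB, -2.16, and the carnitine transferase gene CPT1A, -1.01). CPT1C, another gene of that family, rose by 2.18 between days 4 and 14 (limma adjusted p = 0.0311). Of 10 kept synthesis genes, FADS1, a fatty acid desaturase, differed by -2.13 at day 7 and -1.36 at day 14. INSIG1, a sterol sensor, differed by -2.13 and the malic enzyme gene ME1 by 1.16 at day 7, and ME1 by -1.37 at day 14. Among pyruvate dehydrogenase genes, the kinase gene PDK1 had -0.67, -0.15 and -0.59, so its differences were smaller than those of PDK4 on each day. Of 9 kept genes of that list 0 passed 2-fold at days 4 and 7 and 3 were lower at day 14 (DLAT, PDHB and PDK3, -1.71 to -1.06), each on a CfaAffx probe set. Of 9 kept apolipoprotein and lipocalin genes, 2 were higher at day 4 (APOE and RBP4) and 1 at day 7 (APOE).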

How the data were processed

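Per the labels' protocols, labelled RNA was made from 100 ng of total RNA of each specimen. The values the authors deposited are, for days 4 and 7, a ratio of signal to the array median (lowest value 0.01) and, for day 14, an undivided intensity. These units were read from the values, and the software that made them is not given in the sources used here. Each array was divided by its median, and log2(value + 1) was taken. A pseudocount of 16 on deposited values was not used, because of the different scales. The platform table gave 1 gene for 29254 probe sets, several for 439 and none for 13167, and 27680 matched RefSeq by gene ID. Left out were 90 pairs of probe sets named _a_at and _at on 1 stem, none of these genes. Probe sets under the 40th percentile of mean log2 (0.698) were dropped, leaving 25608.

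limma 3.58.1 (R 4.3.3) fitted day and treatment, two-sided, with Benjamini-Hochberg adjustment over all kept probe sets. In simulated data for the average beta-TCP effect on 25608 probe sets, it called 0%, 52%, 98% and 100% of 50 probe sets each changed by 1, 2, 3 and 4 log2 units, with 7 false calls. The simulated effect was equal on all 3 days, with independent noise on each array. These rates therefore do not cover effects that vary by day or an array that stands apart. P-values measure the spread left by the additive fit, which limma draws towards a variance shared over all probe sets. That prior had 6.56 degrees of freedom beside the 2 residual ones, and 15.1 beside 1 without the day 14 arrays. The shared variance thus weighed more than the residual of the probe set itself. A 2-fold difference is 1 log2 unit. Each gene is otherwise represented by its probe set with the highest mean, and all members with all their probe sets are named. From the lists, genes at least 2-fold apart on a day were named, at most 3 highest and 3 lowest each; FABP5, GPIHBP1, PDK1 and CPT1C were named after their values had been seen. The genes, lists, tests and alternatives were chosen with earlier results of these data known. Alternatives were 2 other scalings, 2 pseudocounts, no filter, 1 probe set per gene, each name type alone, each type centred apart (chosen after seeing the data) and each day left out.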

Additional observations from a re-analysis of the deposited data

Results flagged for a closer look

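Beta-TCP minus control had opposite signs, at least 2-fold each way, on 2 days for 3 genes. Each rests on 1 array per group, and the difference between the days was not tested. For LPL the day 14 difference (-1.08) minus the day 4 difference (2.39) was -3.47. For CD36 the day 14 difference (-1.96) minus the day 7 difference (1.85) was -3.81. For PPARG the day 14 difference (-1.02) minus the day 7 difference (1.02) was -2.04, at levels of 0.094 to 1.42 on these 4 arrays.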

How the results depend on the processing

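The average effect was fitted with day as a term, so the beta-TCP and control arrays were set against each other within each day; the labels carry no replicate numbers for a further block. Of the 54 differences of a kept probe set on a day, 52 kept their sign under all settings, and 2 of DGAT2, both under 0.14 in size, turned. Only the 2 other scalings and the centring of each type could turn a sign. The other settings keep the order of a day's beta-TCP and control values by construction, so they are no check of the sign. For the average beta-TCP effect the count of probe sets called was 0 under every setting except without the day 4 arrays (3) and without the day 14 arrays (108). Day 7 minus day 4 called 0, but 45 with quantile normalization, 74 with the 90th percentile, 50 with 1 probe set per gene, 55 with Cfa alone and 51 with each type centred apart. Day 14 minus day 4 called 837 (7 of the members), against 1431, 1834, 282 (pseudocount of 0.25), 0 (pseudocount of 16), 0 (no filter), 518 (1 probe set per gene) and 233 (CfaAffx alone), the first 2 with quantile normalization and the 90th percentile. Member probe sets past 2-fold numbered 9 at day 4, against 5 with a pseudocount of 16, 5 with 1 probe set per gene and 3 with CfaAffx alone. At day 7 they numbered 10, against 6 with the 90th percentile (4 higher, 2 lower), 2 with a pseudocount of 16 and 5 with either name type alone. At day 14 they numbered 11, against 4 with a pseudocount of 16, 7 with Cfa alone and 4 with CfaAffx alone. Those at least 2-fold lower on all 3 days numbered 4, where 0.281% of all kept probe sets were. They numbered 2 with the 90th percentile (0.215% of all), 0 with a pseudocount of 16 (0.0351%) and 1 with CfaAffx alone (0.294%). Without the day 7 arrays 7 were at least 2-fold lower on both remaining days, against 0.773% of all. Fewer probe sets enter with 1 name type or 1 probe set per gene, and a larger pseudocount shrinks all differences by construction. A count over 2 days is also looser by construction than one over 3. For the other settings the cause was not tested. The average effect turned for LPL (-0.11 with a pseudocount of 16, -0.98 without day 4), FABP4 (-0.86 without day 7), CD36 (0.79 without day 14) and PPARG (1.69e-05 without day 4, 0.25 without day 14). The number of arrays limits the precision of all values.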
